A study of Rattus norvegicus with 62 samples.

Results

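The genes described here are the microtubule motors and tubulins of the rat L4 dorsal root ganglion (DRG), the cluster of sensory nerve cell bodies whose fibres run in the sciatic nerve. All protein-coding genes whose symbol begins with Kif, Klc, Dync, Dynll, Dctn, Tuba or Tubb, followed by a number where the family is numbered, were taken, which gave 76 of the 40982 genes counted. They were sorted by their known roles into 13 mitotic kinesins, 15 axonal and cargo kinesins, 11 other and ciliary kinesins, 4 kinesin light chains, 7 parts of cytoplasmic dynein 1, 4 parts of dynein 2, 6 parts of dynactin, 7 alpha tubulins and 8 beta tubulins. The remaining gene, Dctn3l1, was given no role. RNA sequencing was done on 62 libraries of ganglia from rats whose sciatic nerve had been loosely tied on 1 side, the chronic constriction injury (CCI) model of nerve injury and pain. The ipsilateral ganglion (IL) belongs to the tied nerve, and the contralateral ganglion (CL) of the uninjured side of an injured rat is the control, so no ganglion came from an uninjured animal. Male ganglia (M) were taken 24 h after injury (6 IL and 6 CL), at 1 week (7 IL and 7 CL) and at 5 weeks (5 IL and 5 CL), and female ganglia (F) at 1 week (7 IL and 7 CL) and 5 weeks (6 IL and 6 CL). The labels used here give no strain, age or genotype, and no drug treatment.

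Microtubules are hollow tubes of alpha and beta tubulin, and a rat has several genes (isotypes) for each. In a sensory neuron they fill the axon, where kinesins carry cargo outwards to the nerve endings and cytoplasmic dynein, working with the dynactin complex, carries cargo and injury signals back to the cell body. Mitotic kinesins build and pull on the spindle of dividing cells, and adult neurons do not divide, so RNA of these genes in a ganglion is usually read with that of other cell cycle genes. Regrowing axons need new tubulin, and several beta tubulin isotypes are known to be made again after nerve injury.

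Promoter sequences of 4 members are shown as examples. These 2 mitotic kinesins and 2 beta tubulins are among the 14 members higher in IL ganglia in all 4 comparisons at 1 and 5 weeks. Each line is the RefSeq window of 250 bases before to 50 bases after the annotated start in the GRCr8 build, written 5′ to 3′ on the strand of the gene. Capitals mark CCAAT, the box bound by the factor NF-Y, and TTTGAA or TTCGAA, the core of the cell cycle homology region (CHR) element of cell cycle genes, each on either strand (ATTGG and TTCAAA are the reverse strand forms, and TTCGAA reads the same on both strands). Overlapping matches of the motifs were not found in these windows. The windows lie at chr18:26504172-26504471 (plus strand) for Kif20a, chr1:191080829-191081128 (minus strand) for Kif22, chr17:30952836-30953135 (plus strand) for Tubb2b and chr18:63213037-63213336 (plus strand) for Tubb6.
Kif20a: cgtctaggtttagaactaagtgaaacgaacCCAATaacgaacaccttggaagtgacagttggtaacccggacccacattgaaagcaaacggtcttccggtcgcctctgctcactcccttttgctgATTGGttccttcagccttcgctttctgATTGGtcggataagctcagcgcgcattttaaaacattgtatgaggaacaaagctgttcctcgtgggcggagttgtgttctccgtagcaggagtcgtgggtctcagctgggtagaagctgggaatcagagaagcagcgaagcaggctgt
Kif22: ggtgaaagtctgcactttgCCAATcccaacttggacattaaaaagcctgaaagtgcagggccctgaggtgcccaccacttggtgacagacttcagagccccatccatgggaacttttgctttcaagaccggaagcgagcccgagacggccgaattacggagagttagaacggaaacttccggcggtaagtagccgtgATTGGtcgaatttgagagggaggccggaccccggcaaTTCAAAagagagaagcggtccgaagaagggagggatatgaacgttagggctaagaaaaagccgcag
Tubb2b: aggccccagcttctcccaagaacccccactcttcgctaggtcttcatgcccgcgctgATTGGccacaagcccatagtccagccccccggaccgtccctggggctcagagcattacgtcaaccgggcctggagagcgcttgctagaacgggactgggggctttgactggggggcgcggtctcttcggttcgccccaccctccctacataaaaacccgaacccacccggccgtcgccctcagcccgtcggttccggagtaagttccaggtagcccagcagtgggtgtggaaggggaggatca
Tubb6: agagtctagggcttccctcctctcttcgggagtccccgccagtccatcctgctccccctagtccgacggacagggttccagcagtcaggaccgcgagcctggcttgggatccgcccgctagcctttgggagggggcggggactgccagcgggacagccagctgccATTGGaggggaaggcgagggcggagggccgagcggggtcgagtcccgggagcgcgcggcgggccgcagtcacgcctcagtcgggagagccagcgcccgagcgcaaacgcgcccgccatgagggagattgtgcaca
The Kif20a window held 3 CCAAT boxes and no match to the CHR letters, and the Kif22 window held 2 CCAAT boxes and 1 TTTGAA. The Tubb2b and Tubb6 windows held 1 CCAAT box each. Of the members not shown that rose in all 4 comparisons, Kif2c, Kif5c and Tubb2a held neither motif. Kif3b, Kif26b, Tuba1a, Tuba1b, Tuba1c, Tubb3 and Tubb5 held at least 1 CCAAT box. Tubb4b, lower in IL in 3 of these comparisons, held 4 CCAAT boxes and 1 TTTGAA. RefSeq windows were found for 64 of the 76 members. The CHR letters occurred in 5 of 10 mitotic kinesin genes (50%) and in 0 of 12 axonal and cargo kinesin genes, against 21.0% of all 27457 genes with a window. CCAAT occurred in 6 of 10 mitotic kinesins (60%), 6 of 8 beta tubulins (75.0%), 5 of 7 alpha tubulins (71.4%) and 3 of 12 axonal and cargo kinesins (25.0%), against 39.6% of all genes. Both motifs stood in 4 of 10 mitotic kinesin genes (40.0%), against 8.57% of all genes. A match is a run of letters and not a site shown to be bound, and with so few genes a group these shares are descriptions.

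The deposited tables held between 16933304 and 33495720 counts per library. The first table held the 24 male libraries of 1 and 5 weeks and the second the 38 female and male 24 h libraries, so that sex and table cannot be told apart at 1 and 5 weeks. The members took 2.85% to 3.15% of the counts of an IL library against 2.701% to 2.97% in CL at 24 h, and at 1 and 5 weeks the IL and CL ranges of that share did not overlap in any comparison, with means of 3.16% against 2.78% (M 1 week), 3.40% against 2.95% (M 5 weeks), 3.58% against 2.97% (F 1 week) and 3.51% against 3.12% (F 5 weeks). All 12 markers of sensory neurons, the cell type that defines the tissue, were detected in every group. Their summed level, in CPM (the count scaled to a common library size), was 18506 to 26380 in IL libraries against 31998 to 34924 in CL at 1 week in males, and 18875 to 26657 in IL against 32710 to 35142 in CL in females. Of these 12 markers, 9 fell and 2 rose at 1 week in each sex, and at 5 weeks 7 fell in each sex, with 1 rising in males and 2 in females. In whole ganglia, fewer cells of a type and less RNA per cell cannot be told apart. The female 1 week libraries differed by side in ribosomal RNA share as well, at 0.970% of counts in IL against 2.25% in CL with no overlap, and results of that comparison were also fitted with this share as a covariate.

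Of the 71 members with enough counts to test, 22 rose and 22 fell in IL ganglia of males at 1 week, by edgeR's quasi-likelihood test at an adjusted p under 0.05. The injury moved many genes, and 23.6% of all genes tested rose and 23.4% fell in that comparison (47% in all). In females at 1 week 21 rose and 17 fell, against 23.9% and 21.8% of all genes (45.7% in all). In males at 5 weeks 18 rose and 20 fell, against 16% and 18.7% of all genes (34.7% in all), and in females at 5 weeks 20 rose and 16 fell, against 22.9% and 19.1% (42% in all). At 24 h in males 9 rose and 4 fell, against 8.23% and 5.9% of all genes (14.1% in all). These 24 h counts rested on single libraries: 5 rose without CL library 5 or without IL library 3, and 2 fell without CL library 5 but 8 without CL library 4. In either direction the members called made up 62% (M 1 week), 53.5% (M 5 weeks), 53.5% (F 1 week), 50.7% (F 5 weeks) and 18.3% (M 24 h) of those tested, each somewhat above the share of all genes. Full separation of IL and CL libraries was common. In the same order of comparisons it held for 27, 26, 25, 21 and 4 of 71 members. Of all genes tested it held for 22.1%, 21%, 20.9%, 21.8% and 5.45%. The median log2 fold change (IL over CL) of the members was -0.00, -0.01, 0.00, 0.00 and 0.00 in M 24 h, M 1 week, M 5 weeks, F 1 week and F 5 weeks, against -0.01, 0.01, -0.00, 0.01 and 0.01 for all genes. The median member thus did not move, and the groups of members moved apart. Called higher in all 4 comparisons at 1 and 5 weeks were 14 members (10.3% of all genes were): the tubulins Tuba1a, Tuba1b, Tuba1c, Tubb2a, Tubb2b, Tubb3, Tubb5 and Tubb6, the mitotic kinesins Kif2c, Kif20a and Kif22, and Kif3b, Kif5c and Kif26b. Called lower in all 4 were 10 members (10.9% of all genes were): the axonal kinesins Kif1b, Kif21a and Kif21b, the light chain Klc2, the dynein parts Dync1h1, Dync1i1, Dync1i2 and Dynll2, the dynactin part Dctn4 and the alpha tubulin Tuba8. The other tested members split into 16 called in none of the 4 comparisons (Kif4b, Kif20b, Kif23, Kif24, Kif26a, Kif27, Kif28p, Klc3, Dync2i1, Dynll1, Dctn1, Dctn2, Dctn3l1, Tuba4a, Tubb1 and Tubb4a) and the rest called in some of them, and 0 members were called higher in some and lower in others.

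**Figure D1:**
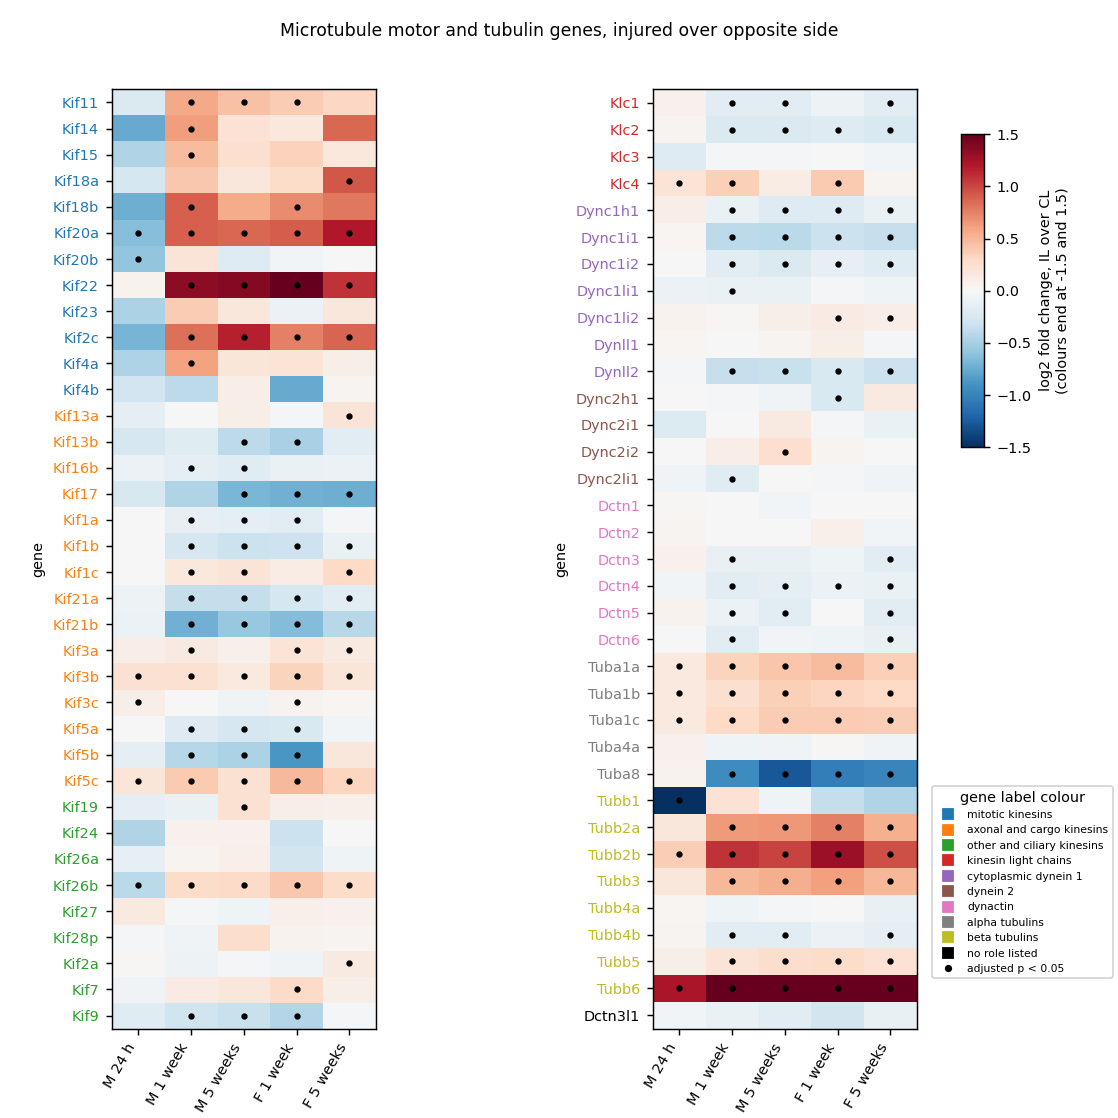
Log2 fold change (IL over CL, colour) of the 71 tested members (rows, grouped by role) in the 5 comparisons (columns), with a dot where the adjusted p was under 0.05. Tubulins and mitotic kinesins hold most of the rows that are red at 1 and 5 weeks, axonal kinesins, dynein 1 and dynactin most of the blue ones, and the 24 h column has 13 dots in all.

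Of 13 tested tubulin genes, 8 rose in each of the 4 comparisons at 1 and 5 weeks and 5 did not. Among all genes 10.3% rose in each of the 4. In each of the 4 comparisons at 1 and 5 weeks 3 of 5 tested alpha tubulins and 5 of 8 beta tubulins rose, and Tuba8 fell. At 24 h 3 alpha tubulins (Tuba1a, Tuba1b and Tuba1c) and 2 beta tubulins (Tubb2b and Tubb6) rose. Without CL library 5 or without IL library 3 the alpha tubulins were not called at 24 h, which left Tubb2b and Tubb6, and without IL library 4 Tuba1a and Tuba1b were not. At 1 and 5 weeks all 8 tubulins that rose were called under every alternative fitted, among them each library left out in turn, the fit with ribosomal RNA content as a term and the CL libraries of the other week as control.

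Tubb6, a widely expressed beta tubulin that is a minor isotype in neurons, had the highest log2 fold change of all members at every time. At 1 week in males its level ran from 49.1 to 71.5 CPM (median 64.9) in IL libraries, against 10.98 to 19.0 CPM (median 15.3) in CL. Female libraries of 1 week ran from 49.4 to 74.6 CPM (median 61.98) in IL, against 10.1 to 15.2 CPM (median 13.9) in CL. Every IL library was above every CL library in both sexes, and the folds were 4.02 (log2 2.01, SE 0.11, adjusted p = 2.28e-12) in males and 4.75 (log2 2.25, SE 0.15, adjusted p = 1.15e-14) in females. At 5 weeks the male IL libraries had 44.1, 48.4, 58.4, 69.2 and 64.3 CPM, against 11.99, 11.1, 12.9, 11.999 and 10.5 CPM in CL. The female IL libraries of 5 weeks ran from 39.9 to 61.2 CPM (median 50.3), against 8.74 to 14.6 CPM (median 11.3) in CL. The sides were again fully apart, with folds of 4.86 in males and 4.34 in females. It was already present at 24 h, when IL libraries ran from 20.3 to 42.3 CPM (median 35.7) against 12.4 to 17.03 CPM (median 13.8) in CL, a fold of 2.33 (log2 1.22, SE 0.16, adjusted p = 6.18e-07). In the same libraries 8 of 10 macrophage markers rose at 1 week in males, in females at 1 week and in females at 5 weeks, 3 rose and 1 fell in males at 5 weeks, and 0 rose or fell at 24 h by edgeR's test (1 rose at an unadjusted p under 0.05), while Tubb6 rose in all 5 comparisons. The part of macrophages in the Tubb6 level was not tested.

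Tubb2b, a neuronal beta tubulin prominent in the developing nervous system, had the second highest log2 fold change among the tubulins that rose at 1 and 5 weeks. At 1 week it ran from 1128 to 1406 CPM (median 1329.8) in male IL libraries, against 586 to 673 CPM (median 611) in CL. In female IL libraries it ran from 1287 to 1637 CPM (median 1508), against 540.0 to 626 CPM (median 610.0) in CL. No IL and CL values overlapped, and the log2 fold changes were 1.08 (SE 0.06, adjusted p = 3.17e-13) and 1.29 (SE 0.06, adjusted p = 4.77e-19). At 5 weeks the male IL libraries had 1046, 1278, 1300.5, 1454 and 1369 CPM, against 679, 628, 575, 633 and 681 CPM in CL. The log2 fold changes at 5 weeks were 1.01 in males and 0.97 in females. At 24 h Tubb2b rose by 0.37 on the log2 scale (SE 0.06, adjusted p = 4.86e-05), with values of 587 to 793 CPM in IL that overlapped the 484 to 597 CPM of CL.

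The more abundant neuronal tubulins rose by less. Tubb3, the neuron-specific class III beta tubulin, ran from 4481 to 5192 CPM (median 4788) in male IL libraries at 1 week, against 3280.1 to 3536 CPM (median 3419.5) in CL. Female libraries of that week ran from 4889.5 to 5672 CPM (median 5201) in IL, against 3055 to 3596 CPM (median 3494) in CL. The sides did not overlap, at folds of 1.41 and 1.53 (adjusted p = 1.4e-09 and 4.66e-12), and at 5 weeks the folds were 1.45 in males and 1.41 in females. At 24 h Tubb3 had a log2 fold change of 0.17 (adjusted p = 0.0514, and 0.0206 with animals as a block). Tubb2a, which lies beside Tubb2b on chromosome 17 (mRatBN7.2, 30796842 to 30800713 for Tubb2a and 30747734 to 30750781 for Tubb2b, both on the plus strand), rose by 0.64, 0.65, 0.75 and 0.53 on the log2 scale in M 1 week, M 5 weeks, F 1 week and F 5 weeks. At 24 h its log2 fold change was 0.17 (adjusted p = 0.105, and 0.0104 with animals as a block). The 24 h block takes all 6 pairs from the labels, although the sides of numbers 5 and 6 did not deviate together. Tubb5, a ubiquitous beta tubulin, rose by 0.19, 0.27, 0.28 and 0.21 in M 1 week, M 5 weeks, F 1 week and F 5 weeks, with no overlap of IL and CL libraries in any of them.

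Tuba1a, the main alpha tubulin of young and regrowing neurons, ran from 3535 to 3922 CPM (median 3648) in male IL libraries at 1 week, against 2797 to 3119 CPM (median 2932) in CL. Female values at 1 week were 4494 to 5079 CPM (median 4744) in IL, against 3215 to 3556 CPM (median 3453) in CL. The groups did not overlap, and the log2 fold changes were 0.33 (SE 0.04, adjusted p = 4.65e-08) and 0.48 (SE 0.04, adjusted p = 6.63e-12). At 5 weeks Tuba1a rose by 0.41 in males and 0.35 in females, and at 24 h by 0.14 (adjusted p = 0.0325), where 5 of 6 pairs of ganglia had the higher value on the IL side. The 24 h call did not hold without CL library 3 or 5 or IL library 2, 3 or 4 (log2 0.10 to 0.13). Its neighbours Tuba1b and Tuba1c on chromosome 7 rose in the same 5 comparisons, by 0.15 to 0.36 and 0.15 to 0.39 on the log2 scale, and their 24 h values without CL library 5 were 0.11 each (adjusted p = 0.104 and 0.0951). IL libraries 3 and 4 (Tuba1b) and 3 (Tuba1c) also decided the 24 h call, with 0.13, 0.14 and 0.12 without them. The 3 genes are near copies: in 0% of libraries was the count of any of them a whole number, so shared reads were split between them and the size of each change is uncertain. Whole counts were also uncommon for Tubb2b (14.5% of libraries), Tubb4b (16.1%), Tubb3 (22.6%) and Tubb2a (24.2%). Outside the tubulins they were uncommon for Kif1b (12.9%) and Dynll1 (24.2%), and stood at 40.3% for Kif2a, 45.2% for Kif1a and 48.4% for Dctn4. The sizes of the changes of these genes are less certain as well.

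Tuba8, a divergent alpha tubulin of low level, fell at 1 and 5 weeks. At 5 weeks in males it had 1.75, 2.69, 1.84, 2.29 and 1.41 CPM in IL libraries, against 3.27, 5.94, 4.92, 5.29 and 4.70 CPM in CL. At 1 week it ran from 1.46 to 3.22 CPM (median 1.99) in male IL libraries against 3.04 to 5.46 CPM (median 3.85) in CL, and from 1.31 to 2.74 CPM (median 2.18) in female IL libraries against 2.62 to 4.86 CPM (median 4.60) in CL. Only the 5 week males showed no overlap, though IL was the lower side in every pair of ganglia at 1 and 5 weeks. The log2 fold changes were -0.94, -1.27, -1.03 and -0.99 in M 1 week, M 5 weeks, F 1 week and F 5 weeks, and 0.05 at 24 h (adjusted p = 0.924). Tubb4b, a beta tubulin of many tissues including cilia, fell by 0.15, 0.17 and 0.13 on the log2 scale in M 1 week, M 5 weeks and F 5 weeks, and had -0.09 in F 1 week (adjusted p = 0.0613, and 0.0452 with animals as a block).

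Other isotypes did not pass the test. Tubb4a, a beta tubulin of myelinating glia and neurons, had log2 fold changes of -0.11 to 0.03 and Tuba4a, an alpha tubulin encoded without the last tyrosine, of -0.07 to 0.07, with adjusted p of 0.0892 or more. With animals as a block both had an adjusted p just under 0.05 in males at 1 week (0.0489 and 0.0468). Tubb1, the beta tubulin of platelets and their precursors, was called lower at 24 h (log2 -1.505, adjusted p = 0.00723), where IL libraries had 0.241 to 0.585 CPM and CL libraries 0.510 to 3.71 CPM. The highest value was that of CL library 5, which also had the highest summed erythroid markers of the CL libraries at 24 h, at 3329 CPM. Without this library the log2 fold change was -0.80 (adjusted p = 0.127). Tuba3a and Tuba3b had at most 5 and 2 raw counts in any library and were not tested.

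**Figure D2:**
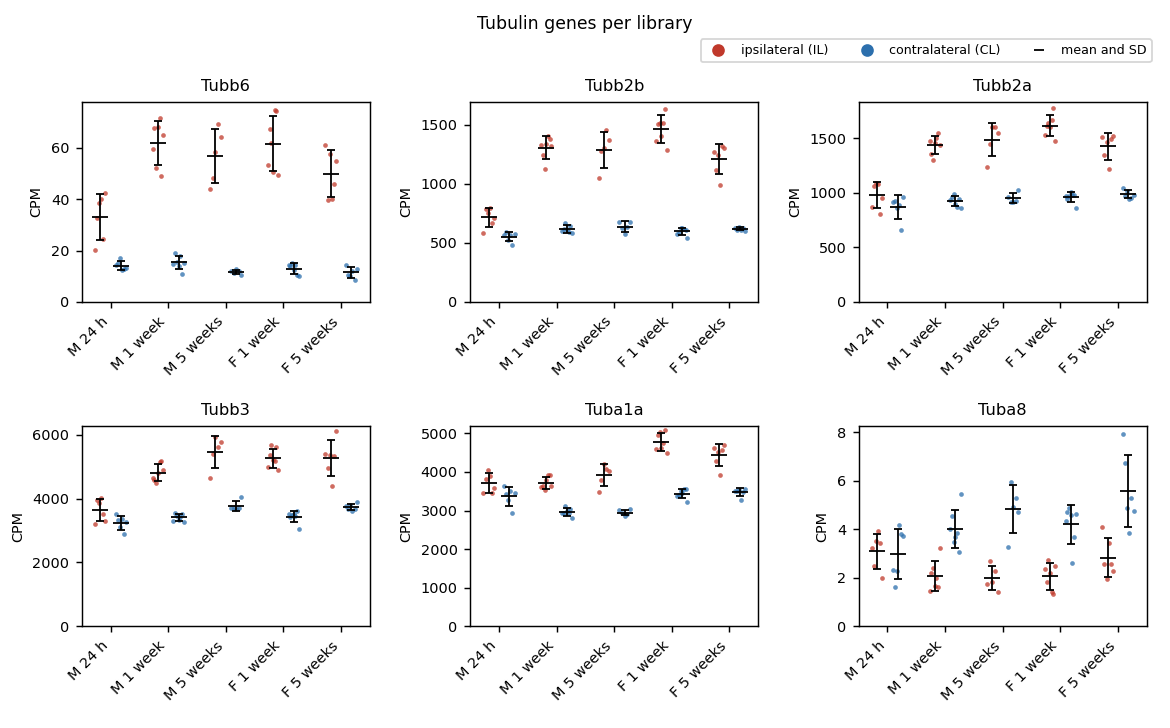
CPM of 6 tubulins in every library (points, linear axis from 0), with IL left of CL in each of the 5 comparisons and black bars for the group mean and SD. Tubb6 and Tubb2b lie far higher in IL at 1 and 5 weeks, the IL points of Tubb2a, Tubb3 and Tuba1a lie above all CL points there, and Tuba8 lies lower in IL.

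The make-up of the beta tubulin RNA shifted with these changes. Per kilobase of exon, so that genes can be set beside each other, Tubb3 was the most abundant beta tubulin at 1 week in males, with 2730.0 CPM per kb in IL against 1932.5 CPM per kb in CL. Its share of the summed beta tubulin level was 45.3% in IL against 43.3% in CL. Tubb2b made up 12.9% ± 0.522 of that sum in IL against 8.22% ± 0.231 in CL (SD, n = 7 each) at 1 week in males. The Tubb2b share in females at 1 week was 13.1% in IL against 7.82% in CL, at 5 weeks 11.7% against 7.92% in males and 11.3% against 7.65% in females, and at 24 h 8.98% against 7.68%. The IL and CL ranges of that share did not overlap in any of the 5 comparisons. Tubb4b went the other way, with 10.7% in IL against 16.1% in CL at 1 week in males. Tubb6 stayed a minor isotype, with 0.589% in IL against 0.197% in CL.

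**Figure D3:**
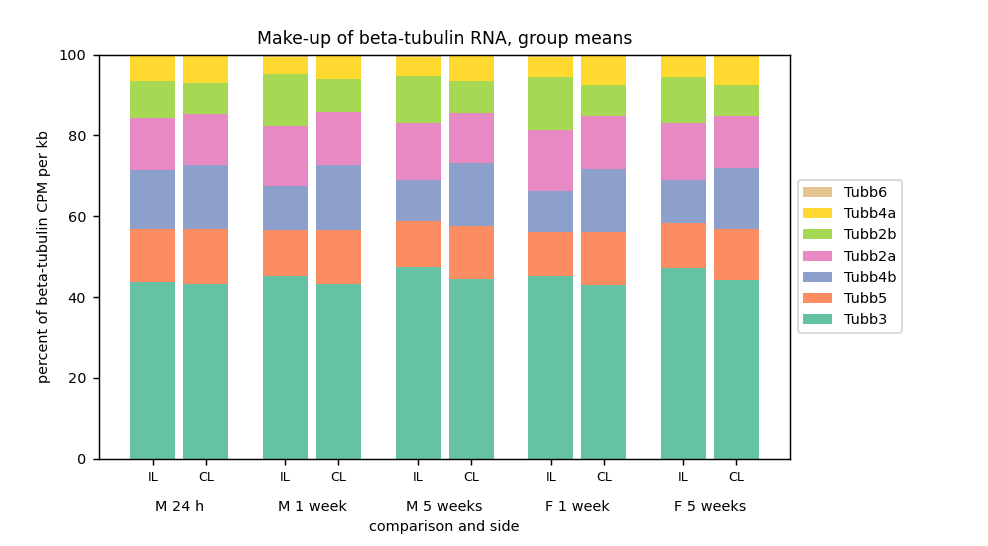
Percent of the summed beta tubulin level (CPM per kb) taken by each isotype but the rare Tubb1, as stacked group means with IL left of CL in each comparison. Tubb2b takes a wider band in IL at 1 and 5 weeks (12.9% against 8.22% in males at 1 week) and Tubb4b a narrower one, and Tubb6 (under 1%) is too thin to be seen.

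Axonal and cargo kinesins were called in both directions. Of all genes 23.6% rose and 23.4% fell in M 1 week, and 23.9% and 21.8% in F 1 week. These shares were 16% and 18.7% in M 5 weeks, 22.9% and 19.1% in F 5 weeks, and 8.23% and 5.9% at 24 h. At 1 week 4 of 15 of these kinesins rose and 7 fell in males, and 4 rose and 8 fell in females. The counts that rose at 1 week lay close to the shares of all genes. At 5 weeks 3 rose and 9 fell in males, and 5 rose and 4 fell in females, whereas at 24 h 3 rose (Kif3b, Kif3c and Kif5c) and 0 fell by edgeR's test (3 at an unadjusted p under 0.05, and 0 by DESeq2 or limma-voom). Without CL library 4 or IL library 1 of 24 h 2 fell. Against the CL libraries of the other week, 5 rather than 9 fell in males at 5 weeks. The neuron markers given above were lower in the same IL libraries, and their part in these calls was not tested.

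The 3 heavy chains of kinesin-1, the main motor of outward transport, moved in opposite directions. Kif5c, the neuronal heavy chain enriched in motor neurons, ran from 728 to 846 CPM (median 806) in male IL libraries at 1 week, against 567 to 666 CPM (median 602) in CL. Female libraries had 866 to 956 CPM (median 932) in IL, against 614 to 713 CPM (median 642) in CL. No values overlapped, and Kif5c rose in all 5 comparisons, by 0.18, 0.40, 0.22, 0.49 and 0.33 on the log2 scale in M 24 h, M 1 week, M 5 weeks, F 1 week and F 5 weeks (adjusted p between 4.52e-14 and 0.000951). Kif5a, the neuronal heavy chain whose mutations cause motor and sensory axon disease in people, ran from 639.9 to 698 CPM (median 657) in male IL libraries at 1 week, against 738 to 816 CPM (median 756) in CL. In males at 5 weeks it had 768, 728, 751, 728 and 693 CPM in IL, against 855, 855, 892, 887 and 878 CPM in CL. These sides did not overlap, and Kif5a fell by 0.19 and 0.25 on the log2 scale there and by 0.23 in females at 1 week. It had -0.04 in females at 5 weeks (adjusted p = 0.53) and 0.01 at 24 h (adjusted p = 0.958). Against the CL libraries of 1 week, the male 5 week value was -0.05 (adjusted p = 0.157).

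Kif5b, the heavy chain of all cell types, gave the sharpest contrast between weeks and sexes. At 1 week female IL libraries ran from 219.8 to 294 CPM (median 253), against 427 to 589.6 CPM (median 452) in CL. Male IL libraries of 1 week ran from 269 to 305 CPM (median 296), against 371 to 436 CPM (median 385) in CL. Neither sex had an overlap, and the log2 fold changes were -0.87 (SE 0.07, adjusted p = 7.22e-13) in females and -0.42 (SE 0.05, adjusted p = 2.22e-07) in males. At 5 weeks the male IL libraries had 341, 298, 298, 261 and 251 CPM, against 401, 387, 411, 425 and 387 CPM in CL, a fall of 0.47 on the log2 scale. The female IL libraries of 5 weeks ran from 324 to 441 CPM (median 377), against 317 to 362 CPM (median 336) in CL. Here the sides overlapped and the log2 fold change was 0.17 (adjusted p = 0.0629, and 0.0231 with animals as a block). The CL level was not the same at both female times, with means of 477 CPM at 1 week and 341 CPM at 5 weeks. Set against the CL libraries of the other week, the female log2 fold changes were -0.39 at 1 week and -0.31 at 5 weeks (adjusted p = 2.94e-05 and 0.000775), so the direction at 5 weeks rests on which CL libraries serve as control. With the ribosomal RNA share as covariate the female 1 week value was -0.87 (adjusted p = 3.9e-06).

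As shares of the 3 heavy chains per kilobase, Kif5c made up 32.1% in IL against 23.3% in CL at 1 week in males, and 32.9% against 21.4% in females. At 5 weeks the Kif5c share was 29.1% against 22.2% in males and 27.2% against 23.0% in females, and at 24 h 24.8% against 22.2%. Kif5a remained the most abundant of the 3, with 192 CPM per kb in IL against 220 CPM per kb in CL at 1 week in males, followed by Kif5c with 114 against 86.7 and Kif5b with 49.2 against 66.1 CPM per kb.

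Kinesins of other cargoes fell too. Kif1a and Kif1b, kinesin-3 motors that carry synaptic vesicle precursors and, for Kif1b, mitochondria too, were the most counted axonal kinesins. Kif1b ran from 1150.1 to 1253 CPM (median 1207) in male IL libraries at 1 week, against 1389 to 1518 CPM (median 1434) in CL. It fell by 0.26, 0.32, 0.31 and 0.10 on the log2 scale in M 1 week, M 5 weeks, F 1 week and F 5 weeks, with overlap of the sides only in the last. The F 5 week call of Kif1b did not hold without CL library 3 or 6 or IL library 1, 5 or 6 (-0.09 to -0.07). Kif1a fell by 0.12, 0.13 and 0.17 in M 1 week, M 5 weeks and F 1 week, and had -0.03 in F 5 weeks (adjusted p = 0.558). Its male 5 week call did not hold without CL library 5 or IL library 4 or 5 (-0.10 in each case), and against the CL libraries of 1 week the value was 0.01. Kif21a and Kif21b, kinesin-4 motors that also restrain microtubule growth, fell in all 4 comparisons at 1 and 5 weeks, by 0.35, 0.36, 0.27 and 0.18 for Kif21a and by 0.72, 0.57, 0.65 and 0.42 for Kif21b. Kif21b ran from 29.5 to 41.1 CPM (median 32.9) in male IL libraries at 1 week, against 47.7 to 68.1 CPM (median 52.5) in CL. In females at 1 week it ran from 27.0 to 45.9 CPM (median 35.5) in IL, against 48.7 to 66.2 CPM (median 57.1) in CL, and IL and CL values of Kif21b did not overlap in these or in the 5 week comparisons. Kif17, a kinesin-2 motor of dendrites and cilia, had about 1 CPM and fell by 0.68, 0.72 and 0.73 in M 5 weeks, F 1 week and F 5 weeks, the first not without CL library 2, 3 or 5 or IL library 1 or 5 (-0.65 to -0.49). Of the remaining kinesin-3 motors, which move endosomes and membrane proteins, Kif13b fell by 0.40 in M 5 weeks and 0.49 in F 1 week and Kif13a rose by 0.19 in F 5 weeks. Kif16b fell by 0.14 in M 1 week and 0.18 in M 5 weeks, the first not without CL library 6 (-0.10) and the second not without CL library 4 or 5 or IL library 5 (-0.15 to -0.13).

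The kinesin-2 subunits Kif3a, Kif3b and Kif3c, which serve cilia and axons, did not follow this fall. Kif3b ran from 94.5 to 102 CPM (median 97.1) in male IL libraries at 1 week, against 79.8 to 86.7 CPM (median 83.4) in CL. At 24 h it already ran from 91.6 to 103 CPM (median 95.3) in IL, against 77.7 to 87.3 CPM (median 81.6) in CL. Kif3b values of the sides did not overlap in any of the 5 comparisons, and it rose by 0.23, 0.23, 0.14, 0.33 and 0.19 in M 24 h, M 1 week, M 5 weeks, F 1 week and F 5 weeks (adjusted p between 8.06e-11 and 0.000575). Kif3a rose by 0.14, 0.21 and 0.13 in M 1 week, F 1 week and F 5 weeks. Kif3c, a neuronal subunit, rose by 0.09 at 24 h (adjusted p = 0.0139) and by 0.06 in females at 1 week (adjusted p = 0.0463, and 0.0708 with animals as a block). The female value fell short of the threshold without CL library 3, 5 or 7 or IL library 4, 5, 6 or 7 (adjusted p = 0.0502 to 0.146), and was -0.00 against the CL libraries of 5 weeks. Kif1c, a kinesin-3 motor of many cell types, rose by 0.16, 0.20 and 0.30 in M 1 week, M 5 weeks and F 5 weeks.

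**Figure D4:**
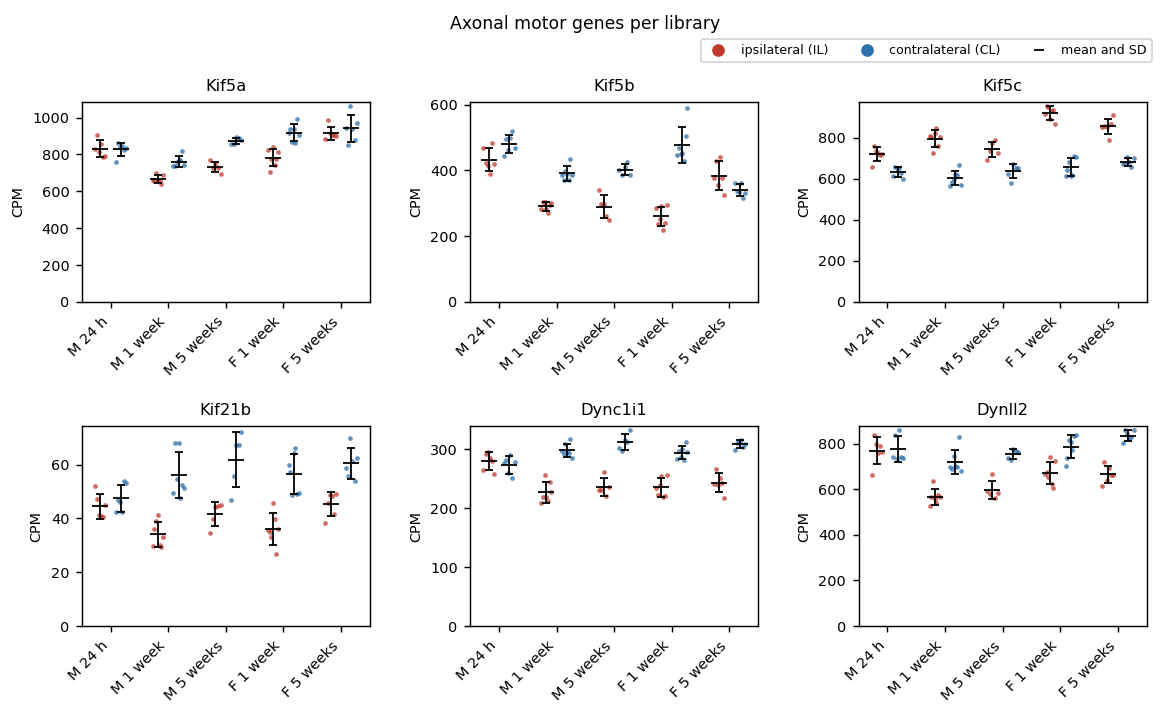
CPM of 3 kinesin-1 heavy chains, Kif21b and 2 dynein parts in every library (points, linear axis from 0), with IL left of CL in each comparison and black bars for the group mean and SD. Kif5c lies higher and Kif21b and Dync1i1 lie lower in IL at 1 and 5 weeks, and Kif5b lies far lower in IL in females at 1 week but not at 5 weeks.

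Of cytoplasmic dynein 1, the motor of inward transport, most parts fell at 1 and 5 weeks: 5 of 7 parts fell in males at 1 week and 4 in each of the other 3 comparisons, and 0 changed at 24 h by edgeR's test (1 in each direction at an unadjusted p under 0.05, and 0 by DESeq2 or limma-voom). In M 1 week, M 5 weeks, F 1 week and F 5 weeks 23.4%, 18.7%, 21.8% and 19.1% of all genes fell. Dync1i1, the neuronal intermediate chain that links the motor to dynactin, ran from 208 to 257 CPM (median 219) in male IL libraries at 1 week, against 285 to 317 CPM (median 294) in CL. The female libraries of 1 week had 218 to 255 CPM (median 234) in IL, against 281 to 312 CPM (median 295) in CL. The sides did not overlap at 1 or 5 weeks, and Dync1i1 fell by 0.40, 0.40, 0.32 and 0.34 on the log2 scale in M 1 week, M 5 weeks, F 1 week and F 5 weeks (adjusted p between 1.89e-08 and 1.27e-06). Dynll2, a light chain shared with myosin V, ran from 525.9 to 636 CPM (median 564) in male IL libraries at 1 week, against 680.1 to 829.9 CPM (median 697) in CL. Dynll2 fell by 0.34, 0.34, 0.23 and 0.33 in those 4 comparisons. Its paralog Dynll1 did not pass the test, with log2 fold changes of -0.02 to 0.09 (adjusted p = 0.0568 in females at 1 week, and 0.0454 there with animals as a block). The heavy chain Dync1h1, which holds the motor domain, fell by 0.10, 0.20, 0.19 and 0.10, the last not without CL library 3, 4 or 6 or IL library 5 or 6 (-0.10 to -0.08). The other intermediate chain, Dync1i2, fell by 0.17, 0.21, 0.12 and 0.18, the third not without CL library 3, 6 or 7 or IL library 2, 5 or 6 (-0.12 to -0.09). Of the light intermediate chains, which bind cargo adaptors, Dync1li1 fell by 0.10 in M 1 week (not called without CL library 4, 5 or 6 or IL library 2, at -0.08), and Dync1li2 rose by 0.13 in F 1 week and 0.10 in F 5 weeks.

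Dynactin, which dynein needs to walk far, changed little. Of 6 parts 4 fell in males at 1 week, 2 in males at 5 weeks, 1 in females at 1 week and 4 in females at 5 weeks, with log2 fold changes of -0.17 to -0.09 among those called. In the same order 23.4%, 18.7%, 21.8% and 19.1% of all genes fell. The dynactin share in females at 1 week (16.7%) lay below that of all genes. In females the 8 dynein 1 and dynactin genes that fell at 5 weeks were 5 without CL library 3, and the 5 that fell at 1 week were 3 without CL library 6 or 7 or IL library 6. Dctn4, a part of the pointed-end complex, ran from 145 to 149.7 CPM (median 147) in male IL libraries at 1 week, against 159 to 179 CPM (median 165) in CL. It fell by 0.17, 0.14, 0.09 and 0.10 on the log2 scale in M 1 week, M 5 weeks, F 1 week and F 5 weeks. The F 1 week call did not hold without CL library 6 or 7 or IL library 6 (-0.08 to -0.07) and the F 5 week call not without CL library 3 (-0.09), and the F 5 week value was -0.04 (adjusted p = 0.394) against the CL libraries of 1 week. Dctn3, Dctn5 and Dctn6, small subunits of the shoulder and the pointed end, fell by 0.11, 0.09 and 0.15 in M 1 week and by 0.17, 0.16 and 0.11 in F 5 weeks, and Dctn5 by 0.16 in M 5 weeks. In M 1 week Dctn3 was not called without CL library 1, 3, 5 or 6 or IL library 1, 2 or 5 (-0.10 to -0.09), and Dctn5 with 10 of the 14 libraries left out (-0.09 to -0.06, all but CL libraries 2 and 4 and IL libraries 3 and 6). Dctn6 was not called in F 5 weeks without CL library 2, 3, 5 or 6 or IL library 1, 4 or 5 (-0.11 to -0.09), nor Dctn5 in M 5 weeks without IL library 4 (-0.12). Dctn1, the p150Glued subunit that grips the microtubule, had log2 fold changes of -0.04 to 0.02 with adjusted p of 0.447 or more. That result turned with the control: against the CL libraries of the other week Dctn1 had -0.14 in M 1 week, 0.10 in M 5 weeks and 0.10 in F 5 weeks. Dctn3l1, which has no listed role, was called in 0 of 5 comparisons by edgeR, DESeq2 or limma-voom and had 0 unadjusted p under 0.05.

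Kinesin light chains tie kinesin-1 to its cargo. Klc2 fell in all 4 comparisons at 1 and 5 weeks, by 0.22, 0.22, 0.19 and 0.23 on the log2 scale. Klc1, the main light chain with 493.3 CPM per kb in IL against 550 CPM per kb in CL at 1 week in males, fell by 0.16, 0.16 and 0.17 in M 1 week, M 5 weeks and F 5 weeks (in M 5 weeks not without CL library 5 or IL library 4, at -0.11 and -0.13), and had -0.07 in F 1 week (adjusted p = 0.108, and 0.0497 with animals as a block). Klc4 was the light chain that rose, by 0.35 in M 1 week, 0.39 in F 1 week and 0.20 at 24 h, the last not without CL library 1, 3, 5 or 6 or IL library 2, 3, 4 or 6 (0.16 to 0.20). Its values ran from 34.3 to 37.7 CPM (median 36.5) in male IL libraries at 1 week, against 27.4 to 28.9 CPM (median 28.6) in CL. At 5 weeks the sides of Klc4 overlapped, with log2 fold changes of 0.11 in males and 0.04 in females (adjusted p = 0.0975 and 0.705).

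Mitotic kinesins were far less abundant than the axonal ones. Those called at 1 and 5 weeks were higher in IL, and those called at 24 h were lower. In M 1 week, M 5 weeks, F 1 week and F 5 weeks 23.6%, 16%, 23.9% and 22.9% of all genes rose. At 24 h 5.9% of all genes fell. Of 12 tested mitotic kinesins, 8 rose in males at 1 week, 4 in males at 5 weeks, 5 in females at 1 week and 4 in females at 5 weeks, and 0 fell there by edgeR's test. At an unadjusted p under 0.05, 1 fell in females at 1 week, as it did by limma-voom (Kif4b, a copy of Kif4a, at a mean of 0.249 CPM in IL against 0.426 CPM in CL), and 0 by DESeq2. At 24 h 2 fell (Kif20a and Kif20b) and 0 rose (also 0 at an unadjusted p under 0.05 and by DESeq2 or limma-voom), and without CL library 3 or 5 or IL library 2, 4, 5 or 6 the count that fell was 1. In females at 1 week 3 in place of 5 rose without IL library 6. Their median log2 fold change was -0.47 at 24 h, 0.58 in M 1 week, 0.24 in M 5 weeks, 0.31 in F 1 week and 0.55 in F 5 weeks. Summed over the group, the level was 42.3 to 55.6 CPM in IL libraries against 25.7 to 30.5 CPM in CL at 1 week in males, and 35.2 to 48.5 CPM in IL against 20.7 to 25.8 CPM in CL in females. Kif22, described below, held a large part of this gap in each sex. At 1 week 4 of the 12 tested were not called in males and 7 were not called in females.

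Kif22, a chromokinesin that holds chromosomes to the spindle, was the mitotic kinesin with the largest rise at 1 week. In females at 1 week it ran from 11.7 to 19.4 CPM (median 14.4) in IL libraries, against 3.82 to 5.46 CPM (median 4.60) in CL. In males at 1 week it ran from 12.1 to 18.3 CPM (median 14.9) in IL, against 4.96 to 6.60 CPM (median 5.597) in CL. The sides were far apart, at folds of 3.19 (log2 1.67, SE 0.16, adjusted p = 9.48e-11) and 2.54 (log2 1.35, SE 0.11, adjusted p = 7.9e-10). At 5 weeks male IL libraries had 9.63, 10.9, 12.2, 16.9 and 12.6 CPM, against 4.41, 3.66, 5.66, 6.08 and 4.28 CPM in CL, and female IL libraries ran from 7.70 to 11.5 CPM (median 9.24), against 3.85 to 5.32 CPM (median 4.30) in CL. Here again no values overlapped, at folds of 2.596 and 2.11. At 24 h the sides overlapped, with 4.69 to 8.55 CPM in IL and 4.19 to 12.5 CPM in CL (log2 0.05, adjusted p = 0.895).

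Kif20a, which acts at the end of division when the daughter cells part, ran from 4.93 to 6.31 CPM (median 5.64) in male IL libraries at 1 week, against 2.499 to 3.55 CPM (median 2.94) in CL. In the female libraries it ran from 3.45 to 4.51 CPM (median 3.77) in IL, against 1.68 to 2.46 CPM (median 2.08) in CL. The sides did not overlap in these or in the 5 week comparisons, and the log2 fold changes were 0.90, 0.86, 0.91 and 1.20 in M 1 week, M 5 weeks, F 1 week and F 5 weeks. At 24 h Kif20a was called lower (log2 -0.64, adjusted p = 0.0495), and without CL library 5, whose 7.24 CPM was the highest, the value was -0.43 (adjusted p = 0.232). That call also failed without CL library 3 or IL library 2, 4, 5 or 6, and its range over these libraries was -0.68 to -0.43. Kif2c, which takes microtubules apart at the kinetochore, rose by 0.82, 1.17, 0.75 and 0.87 in the 4 comparisons at 1 and 5 weeks. In males at 5 weeks it had 1.08, 1.41, 1.49, 2.66 and 2.34 CPM in IL libraries, against 0.545, 0.603, 0.882, 1.06 and 0.931 CPM in CL. The F 5 week call of Kif2c did not hold without CL library 1, 2 or 4 or IL library 5 (0.73 to 0.79). Kif11, the motor that pushes the spindle poles apart, rose by 0.56, 0.44 and 0.38 in M 1 week, M 5 weeks and F 1 week (adjusted p = 3.23e-05, 0.00508 and 0.0273, the last being 0.0549 with animals as a block). Its F 1 week value was 0.35 without CL library 2 and 0.36 without IL library 6 (adjusted p = 0.0528 and 0.0519). It had 0.31 in F 5 weeks (adjusted p = 0.121).

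The other mitotic kinesins were called in fewer comparisons. Kif18b, a plus-end motor of spindle microtubules, rose by 0.90 in M 1 week and 0.70 in F 1 week, the second not without CL library 1, 3, 4 or 6 or IL library 6 or 7 (0.56 to 0.67). Kif4a, Kif14 and Kif15, motors of the anaphase spindle, of cytokinesis and of spindle bipolarity, rose in M 1 week (0.61, 0.63 and 0.47), and Kif14 was not called with any of 11 of the 14 libraries left out (0.58 to 0.65, all but CL library 5 and IL libraries 3 and 6). They were not called in the other 4 comparisons. Kif18a, which dampens chromosome movements, rose by 0.93 in F 5 weeks, and in M 1 week it had 0.40 (adjusted p = 0.055, and 0.0246 with animals as a block). Kif20b fell by 0.59 at 24 h (adjusted p = 0.00468), and without CL library 5 by 0.45 (adjusted p = 0.0299). Kif23, a subunit of the centralspindlin complex of cytokinesis, was called in 0 of 5 comparisons by edgeR, with -0.48 at 24 h, 0.38 in M 1 week (adjusted p = 0.0566, and 0.023 with animals as a block) and -0.08 to 0.17 in the others. Kif2b was not tested, with at most 2 raw counts in a library.

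Of the 10 markers of proliferating cells, Mki67, Top2a and Cdk1 among them, those called at 1 and 5 weeks were higher in IL. Those called at 24 h were lower, the same directions as for the mitotic kinesins called. In M 1 week 7 of 10 rose, in M 5 weeks 2, in F 1 week 3 and in F 5 weeks 3, and 0 fell there by edgeR's test, while at 24 h 5 fell and 0 rose (0 at an unadjusted p under 0.05 in each of these cases). Of all genes 23.6%, 16%, 23.9% and 22.9% rose in M 1 week, M 5 weeks, F 1 week and F 5 weeks, and 5.9% fell at 24 h. The marker counts of M 5 weeks, F 1 week and F 5 weeks lay close to those shares. Their summed level was 45.8 to 72.8 CPM in IL libraries against 32.1 to 41.8 CPM in CL at 1 week in males, without overlap. At 1 week in females it was 31.1 to 46.7 CPM in IL against 21.7 to 32.0 CPM in CL, and at 5 weeks 28.8 to 54.8 against 20.1 to 54.2 CPM in males and 21.3 to 30.8 against 14.3 to 21.8 CPM in females. At 24 h it was 24.8 to 52.2 CPM in IL against 37.5 to 146.6 CPM in CL, the highest value being that of CL library 5. All 8 markers of erythroid cells rose in M 1 week, and 0 rose or fell in each of the other comparisons by edgeR's test. Their summed level averaged 1154 CPM in IL against 375 CPM in CL in M 1 week, 1163 CPM against 1086 CPM in M 5 weeks and 645 CPM against 1371 CPM at 24 h. In females it averaged 188 CPM in IL against 273 CPM in CL in F 1 week and 139 CPM against 258 CPM in F 5 weeks. Among the CL libraries, 1 library had the highest sums of both lists in its group, except in F 5 weeks. It was library 5 of 24 h, library 3 of M 5 weeks, library 2 of M 1 week and library 5 of F 1 week (3329, 2055, 827 and 482 CPM of erythroid markers). In M 1 week and F 1 week its proliferation sum was barely above the next (41.8 against 41.6 CPM and 32.0 against 31.9 CPM). In F 5 weeks CL library 4 had the highest proliferation sum and CL library 5 the highest erythroid sum. Among the IL libraries, the same library led both lists only at 24 h (library 6). In M 1 week IL library 5 had the highest proliferation sum and IL library 1 the highest erythroid sum. In M 5 weeks these were IL libraries 4 and 5, and in F 1 week 6 and 4. In F 5 weeks they were IL libraries 2 and 5. In males at 5 weeks the sums of the proliferation markers overlapped between the sides. Of 12 tested mitotic kinesins 4 were called there, with Kif22, Kif20a and, by a narrow gap, Kif2c not overlapping, and 8 were not called. The part of erythroid or other dividing cells in the mitotic kinesin levels was not tested.

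The count of mitotic kinesins that rose was sensitive to the ribosomal RNA share as covariate and to the control libraries. When ribosomal RNA content was a covariate it was 1 of 12 in place of 5 in females at 1 week (Kif22, log2 1.21, adjusted p = 0.00161), and Kif20a had 0.53 (adjusted p = 0.37), Kif2c 0.19 (adjusted p = 0.832) and Kif11 0.21 (adjusted p = 0.632). The ribosomal RNA share did not overlap between IL and CL in that comparison, so the fit cannot fully separate this share from the side. Against the CL libraries of 5 weeks 8 rose in that comparison. In females at 5 weeks the count against the CL libraries of 1 week was 1 in place of 4 (Kif22, log2 1.00), and Kif20a had 0.20 (adjusted p = 0.521) and Kif2c 0.30 (adjusted p = 0.435). In males at 5 weeks Kif20a had 0.27 against the CL libraries of 1 week (adjusted p = 0.0698). Kif22 rose in all 4 comparisons at 1 and 5 weeks under each of these settings.

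**Figure D5:**
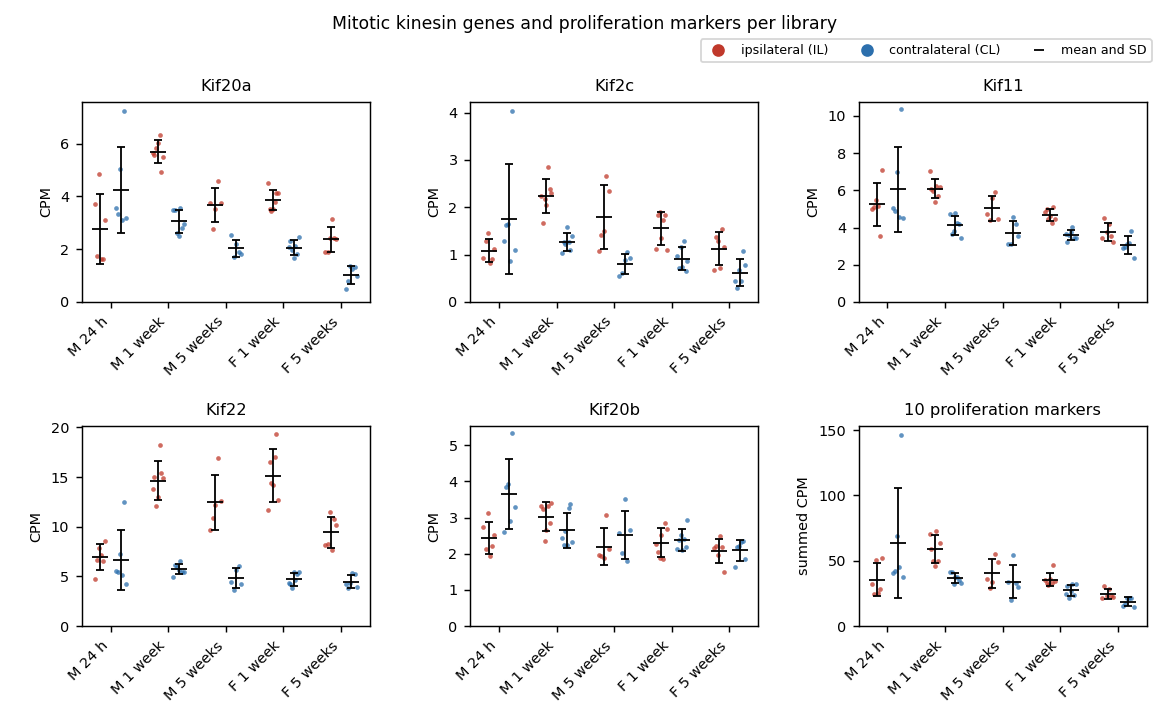
CPM of 5 mitotic kinesins and the summed CPM of 10 proliferation markers in every library (points, linear axis from 0), with IL left of CL in each comparison and black bars for the group mean and SD. Kif22 and Kif20a separate the sides at 1 and 5 weeks, Kif20b does not, and at 24 h CL library 5 is the highest point in every panel.

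Kinesins of cilia and other roles moved little. Of 9 tested, 1 fell at 24 h, 1 rose and 1 fell in M 1 week, 2 rose and 1 fell in M 5 weeks and in F 1 week, and 2 rose in F 5 weeks. In the order just given, 11.1%, 22.2%, 33.3%, 33.3% and 22.2% of them were called, against 14.1%, 47%, 34.7%, 45.7% and 42% of all genes. Kif26b, an atypical kinesin known from kidney development in the mouse, changed direction between times. At 24 h its IL libraries had 20.3 to 26.4 CPM (median 23.5), against 28.5 to 34.1 CPM (median 30.2) in CL, a fall of 0.40 on the log2 scale (adjusted p = 9.24e-05) with no overlap. At 1 week in females it had 44.3 to 55.1 CPM (median 47.6) in IL, against 33.1 to 40.0 CPM (median 37.1) in CL, and it rose by 0.28, 0.29, 0.41 and 0.27 in M 1 week, M 5 weeks, F 1 week and F 5 weeks. Kif9, a kinesin of motile cilia, fell by 0.44 in F 1 week. It fell by 0.30 in M 1 week, not without CL library 3 or 6 (-0.24 and -0.25), and by 0.34 in M 5 weeks, where the call failed without any library but CL library 4 and IL library 3 (-0.33 to -0.30). Kif19, which sets the length of motile cilia in the mouse, rose by 0.22 in M 5 weeks (0.20 and not called without CL library 1 or IL library 3). Kif7, which regulates hedgehog signalling in the cilium, rose by 0.28 in F 1 week, and Kif2a, a microtubule depolymeriser of neurons, by 0.14 in F 5 weeks. Of the 4 parts of dynein 2, the inward motor of cilia, Dync2li1 fell by 0.19 in M 1 week and Dync2h1 by 0.23 in F 1 week, and Dync2i2 rose by 0.25 in M 5 weeks (0.21 without CL library 3 and 0.20 without CL library 4, not called). Kif6 had at most 11 raw counts in a library and was not tested.

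Whether the side difference itself changed with time or sex was tested as an interaction. Between 5 and 1 weeks it differed in 11 members in females (15.5% of those tested), or in 7 without CL library 6 of 5 weeks. Of all genes 7.66% had a higher and 5.88% a lower value at 5 weeks (13.5% in all), so the share of members lay close to that of all genes. In males it differed in 0 members (against 0.079% of all genes higher, 0.132% lower and 0.211% in all) by edgeR's test, in 7 at an unadjusted p under 0.05 and in 0 by DESeq2 or limma-voom. There 1 member passed without CL library 6 of 1 week, and 2 passed with animals as a block (Kif19 with 0.33 and Klc4 with -0.25). Kif5b gave the largest female difference, at 1.047 on the log2 scale (SE 0.10, adjusted p = 9.52e-10) between 0.17 at 5 weeks and -0.87 at 1 week. Of the other members, those with the smallest p were Dync2h1 with 0.37 (0.14 at 5 weeks and -0.23 at 1 week), Kif1b with 0.21 and Kif2a with 0.19. Tubb2b and Klc4 went the other way, with differences of -0.33 (0.97 at 5 weeks and 1.29 at 1 week) and -0.35 (0.04 and 0.39). When ribosomal RNA content was a covariate 3 of the 11 passed: Kif5b, Kif1b and Kif2a.

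Females and males differed in the side effect on 1 member at 1 week (0.416% of all genes higher in females, 0.698% lower and 1.11% in all) and on 2 members at 5 weeks (1.55% higher, 0.562% lower and 2.11% in all), in a fit of both tables in which sex and table cannot be told apart. At 1 week it was Kif5b, with a female minus male difference of -0.46 (adjusted p = 0.00132). At 5 weeks it was Kif5b again, with 0.61 (adjusted p = 7.4e-05), and Kif1b with 0.19 (adjusted p = 0.0277), which did not pass with the ribosomal RNA share as covariate or without CL library 1, 2 or 5 or IL library 2 or 3 of F 5 weeks (0.17 to 0.18). Between 1 week and 24 h in males 36 members differed (11% of all genes higher at 1 week, 12% lower and 23% in all), and time and table cannot be told apart there. The 4 with the smallest p were Tubb2b with 0.71 (1.08 at 1 week and 0.37 at 24 h, adjusted p = 3.32e-08), Kif26b with 0.68 (0.28 and -0.40, adjusted p = 3.41e-07), Dync1i1 with -0.43 (-0.40 and 0.03, adjusted p = 6.73e-07) and Kif20a with 1.54 (0.90 and -0.64, adjusted p = 7.15e-06).

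Partners of these motors and filaments outside the family were called in both directions too, and the counts below are to be read against the shares of all genes called, 47%, 34.7%, 45.7%, 42% and 14.1% in M 1 week, M 5 weeks, F 1 week, F 5 weeks and M 24 h. Called in M 1 week and F 1 week were 78.6% and 28.6% of kinesin, dynein and dynactin genes with other symbols, 57.7% and 65.4% of motor adaptors, 76.7% and 83.3% of microtubule-associated proteins, 36.4% and 63.6% of stathmins and severing enzymes, and 46.7% and 53.3% of genes of tubulin folding, nucleation and modification. The shares of 28.6% and 36.4% lay below that of all genes in the same comparison, and that of 46.7% was about equal to it. Of 14 kinesin, dynein and dynactin genes with other symbols, 4 rose and 7 fell in M 1 week, 2 rose and 6 fell in M 5 weeks, 2 rose and 2 fell in F 1 week, 2 rose and 7 fell in F 5 weeks, and 0 changed at 24 h by edgeR's test (1 rose and 3 fell at an unadjusted p under 0.05). Kifc1, an inward-directed mitotic kinesin, rose by 0.59 in M 1 week, the dynein light chain Dynlt1 rose by 0.23 in M 1 week and in F 1 week and the light chain Dynlt3 fell by 0.27 and 0.12. The dynactin parts Actr10 and Actr1b moved apart, with Actr10 falling by 0.23 in M 1 week and 0.14 in F 1 week and Actr1b rising by 0.13 in F 1 week. Of 26 motor adaptors 5 rose and 2 fell at 24 h, 6 rose and 9 fell in M 1 week, 6 and 7 in M 5 weeks, 8 and 9 in F 1 week, and 6 and 9 in F 5 weeks. Among them Ndel1, a regulator of dynein, rose by 0.23 and 0.36, and Fez1, a kinesin-1 adaptor, fell by 0.43 and 0.39. Rhot1, which ties mitochondria to motors, fell by 0.29 in M 1 week, its relative Rhot2 rose by 0.23 in F 1 week, Grip1, a kinesin-1 adaptor of dendrites, rose by 0.22 in M 1 week, and Bicd1, a dynein adaptor, fell by 0.46 in F 1 week.

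Of 30 microtubule-associated proteins 7 rose and 1 fell at 24 h, 11 rose and 12 fell in M 1 week, 8 and 10 in M 5 weeks, 12 and 13 in F 1 week, and 15 and 10 in F 5 weeks. Map7d1, a kinesin-1 cofactor, rose by 0.55 and 0.59, Map6, which makes microtubules cold-stable, by 0.58 in M 1 week, and Dclk1, a doublecortin-like kinase of growing axons, by 0.45 in F 1 week. The large axonal and dendritic protein Map1a fell by 0.45 and 0.51, Map1b by 0.51 in F 1 week, and Mapre3, which tracks growing plus ends, by 0.32 in M 1 week. Of 11 tested stathmins and severing enzymes 2 rose at 24 h, 3 rose and 1 fell in M 1 week and in M 5 weeks, 5 rose and 2 fell in F 1 week, and 5 rose in F 5 weeks. Stmn4, a neuronal stathmin that binds free tubulin, rose by 2.41 and 2.72 on the log2 scale at 1 week and by 1.45 at 24 h, above the values of Tubb6. The stathmins Stmn1 (0.42 in M 1 week) and Stmn2 (0.65 in F 1 week) rose too, and the severing enzymes Katnal1 (by 0.31 in both) and Spast (by 0.10 in F 1 week) fell. Of 30 genes of tubulin folding, nucleation and modification 2 rose and 2 fell at 24 h, 4 rose and 10 fell in M 1 week, 4 and 8 in M 5 weeks, 8 and 8 in F 1 week, and 4 and 12 in F 5 weeks. Vash2, which removes the last tyrosine of alpha tubulin, rose by 1.13 and 1.40, and Ttll7, which adds glutamate chains to beta tubulin, fell by 0.88 and 0.95. Agtpbp1, which trims glutamates from tubulin, rose by 0.26 and 0.37, while Ttll5, another glutamate ligase, fell by 0.38 in M 1 week and Tubgcp2, a part of the nucleating gamma-tubulin complex, by 0.20 in F 1 week.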

How the data were processed

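The deposited values are estimated counts of reads per gene, as the authors deposited them, from poly-A, strand-specific, single-end libraries of L4 ganglia. The submitters' processing notes name featureCounts 1.6.4, STAR 2.7.2b, bcl2fastq 2.20.0.422, cutadapt 2.5 and the mRatBN7.2 build. Most but not all counts above 0 were exactly whole (74.1% and 78.1% of such values in the 2 tables), so shared reads were divided between genes. For the shares of single members, a count within 0.005 of a whole number was taken as whole.

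Counts were rounded, which moved no library total by more than 0.0014%, and filtered with filterByExpr (minimum count 10) in R 4.3.3, which left 18980 genes in the first table and 18125 in the second. IL was set against CL with edgeR 4.0.16 (TMM scaling, robust quasi-likelihood fit, all groups of a table in 1 fit, Benjamini-Hochberg adjustment over all genes tested), and a joint fit of both tables (19209 genes) gave the interactions between tables. Fold changes are IL over CL, and CPM use TMM-scaled library sizes. The test was run on simulated counts first.

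In the second table the labels give both sides of an animal 1 code. In the first they do not name animals, but same-numbered sides deviated from their group means together (median correlation 0.407 in M 1 week and 0.273 in M 5 weeks, each over 0.1), so animals were also fitted as a block. At 24 h the same check failed for numbers 5 and 6 (correlations 0.0100 and 0.0130, each closest to the other number), although their labels share a code, so blocked values at 24 h rest on the labels alone for these 2. Where labels name no animal, p-values measure the spread between these libraries. No 2 libraries held identical values.

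Alternatives were other scaling, filters, DESeq2 1.42.0, limma-voom (limma 3.58.1), the block, the groups of a comparison alone, the CL libraries of the other week, the ribosomal RNA share and each library left out. Leaving out numbers 5 and 6 at 24 h for that reason was chosen after seeing the data. Members, gene lists and markers were chosen with earlier results of these data known. The genes named are a fixed set of well-known members, the 2 called members with the smallest p per role, direction and comparison, the 4 per interaction, and members behind ranges and small counts. From the lists of partner genes, the 2 called genes with the smallest p per direction at 1 week are named. Figures were drawn with matplotlib.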

Additional observations from a re-analysis of the deposited data

Results flagged for a closer look

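Each of 24 members was checked for single libraries that stand apart from the rest of their group (the gap to the nearest library over the range of the group, against the critical value of Dixon's test), and 14 of 240 groups held one, where chance alone gives about 1 in 20. CL library 5 of M 24 h stood high for Tubb1 (3.714 CPM), Kif22 (12.49 CPM) and Kif2c (4.039 CPM) and low for Tubb2a (662.1 CPM). CL library 6 of M 1 week stood high for Kif5a (816.0 CPM), Dynll2 (829.9 CPM) and Dctn4 (179.0 CPM). The other libraries that stood apart were CL library 5 of M 5 weeks for Tubb3 (4056 CPM), CL library 7 of F 1 week for Tubb3 (3055 CPM), CL library 4 of F 5 weeks for Tuba1a (3270 CPM), IL library 2 of F 5 weeks for Kif5a (984.5 CPM), CL library 6 of F 1 week for Kif1b (1782 CPM), IL library 4 of M 5 weeks for Kif3b (93.25 CPM) and CL library 4 of F 1 week for Kif3b (79.29 CPM).

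The side effect differed between weeks or sexes by an interaction test in the fit across all genes. Between 5 weeks and 1 week in females, Kif5b had a difference of 1.047 on the log2 scale, Dync2h1 of 0.3695, Kif1b of 0.2141 and Kif2a of 0.1884. Between 1 week and 24 h in males, the differences were 0.7052 for Tubb2b, 0.6802 for Kif26b, -0.4287 for Dync1i1 and 1.537 for Kif20a. Between females and males, Kif5b had -0.4623 at 1 week and 0.6100 at 5 weeks, and Kif1b had 0.1895 at 5 weeks.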

How the results depend on the processing

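Of the counts of members called, those that moved by over 1.5 times were few. At 24 h in males the 9 that rose were 4 with the 2 groups fitted alone, and the 4 that fell were 1 in that fit, 7 with animals as a block (replicate block) and 1 with numbers 5 and 6 left out. In females at 1 week the 21 that rose were 13 and the 17 that fell were 11 with the ribosomal RNA share as covariate. The 11 members whose side effect differed between 5 and 1 weeks in females were 7 with no filter on low counts and 3 with that covariate, the 2 that differed between females and males at 5 weeks were 1 with it, and the 0 that differed between 5 and 1 weeks in males were 2 with the block. Each library left out in turn gave 5 to 12 higher and 2 to 8 lower at 24 h, 21 to 23 and 19 to 23 in M 1 week, 17 to 21 and 15 to 22 in M 5 weeks, 18 to 21 and 15 to 19 in F 1 week, and 19 to 22 and 12 to 16 in F 5 weeks. For the interactions it gave 0 to 1 (M 5 weeks minus 1 week), 7 to 11 (F 5 weeks minus 1 week), 27 to 37 (M 1 week minus 24 h), 1 to 1 (females minus males at 1 week) and 1 to 3 (at 5 weeks). Single members reversed only against the CL libraries of the other week: Dctn1 to -0.14 in M 1 week, 0.10 in M 5 weeks and 0.10 in F 5 weeks, Tubb4a to 0.21 and Kif1a to 0.0068 in M 5 weeks, Kif3c to -0.0022 and Kif13a to 0.14 in F 1 week, and Kif5b to -0.31 in F 5 weeks. The cause of these moves was not tested. Changes under about 0.1 on the log2 scale rest on few libraries. So do some larger ones, such as Kif14 in M 1 week, Kif9 in M 5 weeks, Kif18b in F 1 week and Klc4 at 24 h. Members under about 1 CPM (Tubb1, Kif17 and Kif4b among them) rest on few counts. Besides the calls given with their blocked p, the block added calls of Dync2i1, Kif3a, Kif13b and Kif18b at 24 h, Kif19 in M 1 week, Dctn3, Dync1li1 and Dync1li2 in M 5 weeks, Kif1c, Kif16b and Kif26a in F 1 week, and Kif14 and Kif18b in F 5 weeks, and changed no other call of IL against CL.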

Other observations

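Kif12, a kinesin of epithelial cells, had too few counts to be tested, and is given here after its values were seen. In M 1 week it had 4, 2, 4, 3, 4, 3 and 3 raw counts in the IL libraries and 0 in each of the 7 CL libraries. In F 1 week it had 5, 3, 3, 6, 3, 9 and 2 raw counts in IL against 0, 0, 0, 0, 1, 0 and 0 in CL. At 5 weeks male IL libraries had 0, 1, 8, 6 and 6 raw counts against 0, 0, 1, 0 and 0 in CL, and female IL libraries 1, 3, 3, 5, 1 and 5 against 0 in each CL library. At 24 h it had 0, 0, 1, 0, 4 and 0 in IL against 0, 0, 0, 3, 1 and 0 in CL. A count of 0 allows up to 3 counts in a library, so these values stand at the limit of the depth.

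Dctn3l1 had 5.24 to 7.40 CPM in every library of the first table (males at 1 and 5 weeks) and at most 1.34 CPM in the second, which also holds males at 24 h. This gap was not seen between IL and CL, and whether it comes from the tables or the animals cannot be told apart.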
